A study of Mus musculus with 4 samples.

Results

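The 9 genes described here mark the formative and primed states, the stages through which naive pluripotent cells pass before the germ layers form. The rule lists them by name and uses no measured value, but the list was chosen with earlier results of these data known. They are the secreted growth factors Fgf5 and Fgf15, and the transcription factors Otx2, Pou3f1, Lef1, Zic2, Sox3, Sall2 and Grhl2. They are 9 of 20466 genes to which a level could be given, and all 9 were among the 10156 genes with a mean level of at least 1 FPKM that were tested. RNA was sequenced from 46C mouse embryonic stem (ES) cells, a line with a GFP reporter at Sox1, in which Atad2 carries a C-terminal TAP tag knocked in at its own locus, in 1 chosen clone. The cells were grown in LIF and serum on gelatin without feeders, and were transfected either with an inactive scrambled siRNA (si-ctrl) or with siRNA against Atad2 (si-Atad2). The study describes different active siRNAs against Atad2, and which of them each si-Atad2 library received is not given in the labels. All 4 libraries therefore carry the tag, and 2 libraries per condition were compared, si-Atad2 1 with si-ctrl 1 (pair 1) and si-Atad2 2 with si-ctrl 2 (pair 2). The time between transfection and harvest is not given in the sources used here. Nothing in the labels says that the libraries of a condition come from separate cultures, and the study describes each RNA as sequenced again, so the p-values measure the spread between these libraries, which may be technical.

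ES cells in serum and LIF are held near the naive state, in which factors such as Klf2, Klf4, Esrrb and Nanog keep the cells self-renewing. On leaving it, the cells lower these factors, and Otx2 and Pou3f1 redirect Oct4 (encoded by Pou5f1) to new enhancers while Fgf5 rises in the epiblast. The FGF and ERK pathway drives this step, and Tcf7l1 and Lef1 carry the response of target genes to Wnt and β-catenin. RNA from a whole culture was measured, so fewer cells in a given state and less RNA per cell cannot be told apart.

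Levels are given in FPKM, the number of sequenced fragments relative to transcript length (in kilobases) and library size. The level of a gene sums only transcripts that could be named, so a low level may be understated. Each deposited level has a 95% interval, which covers the estimate within its library and not the spread between libraries. Changes are log2 ratios of (FPKM + 1), si-Atad2 over si-ctrl within a pair. The added 1 FPKM understates the change of weakly expressed genes such as Sox3 and Fgf5. Atad2, the check of the labels, went from 34.1 to 10.1 FPKM in pair 1 and from 36.0 to 13.0 FPKM in pair 2. Over all tested genes, 174 were higher and 50 lower after knockdown at an adjusted p under 0.05 (limma on both pairs, Benjamini-Hochberg adjustment over all 10156). An unadjusted p under 0.05 by limma was found for 1642 of the 10156 genes. Pairs 1 and 2 had median log2 ratios of 0.0011 and -0.016. The tables give no read counts, and where a gene has a single transcript the fragments behind its level were estimated from the width of the interval.

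The cells had the markers of ES cells in every library. Pou5f1, Sox2, Nanog, Zfp42 and Sall4 summed to between 1533 and 1687 FPKM. The 6 primitive endoderm markers summed to between 6.58 and 7.25 FPKM, with Gata6, Sox7, Sox17 and Pdgfra each under 1 FPKM everywhere. Dab2 (3.26 to 3.96 FPKM) and Gata4 (1.01 to 1.19 FPKM) were above 1 FPKM in every library. Of the neural progenitor markers, 4 of 5 had a value and summed to between 6.10 and 7.24 FPKM, with Nes at 3.39 to 3.78 and Pax6 at 1.79 to 2.53 FPKM. The 5 fibroblast markers summed to between 7.16 and 8.49 FPKM, of which Thy1 was the highest at 5.56 to 6.75 FPKM. In none of these 4 lists did limma call a gene, while Pou5f1, Nanog and Sall4 of the ES cell markers and Pax6 of the neural markers, all lower after knockdown, had an unadjusted p under 0.05. The part of these in the results that follow was not tested.

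In the si-ctrl libraries the 9 genes spanned a 36.2-fold range of levels. Otx2 was highest, at 48.2 and 51.7 FPKM, followed by Zic2 at 45.7 and 46.3 FPKM and Lef1 at 42.8 and 43.1 FPKM. Fgf15 followed at 32.4 and 31.5 FPKM and Pou3f1 at 15.2 and 16.7 FPKM. Grhl2 (7.58 and 7.71 FPKM) and Sall2 (5.32 and 5.26 FPKM) were lower, and Fgf5 (2.27 and 2.25 FPKM) and Sox3 (1.53 and 1.23 FPKM) were the lowest. The si-ctrl libraries of neighbouring genes in this order did not overlap, but the authors' intervals did for Otx2 and Zic2 and for Zic2 and Lef1, so the order among these 3 genes is not settled. Among all tested genes, Otx2 stood at percentile 89.3 of the mean level, and Fgf5 and Sox3 at percentiles 12.1 and 12.0. The transcription factors thus included both well expressed and barely detected members. In the plot of levels, Sox3 exceeded Fgf5 in both si-Atad2 libraries, and Lef1 exceeded Zic2 in si-Atad2 1.

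**Figure D1:**
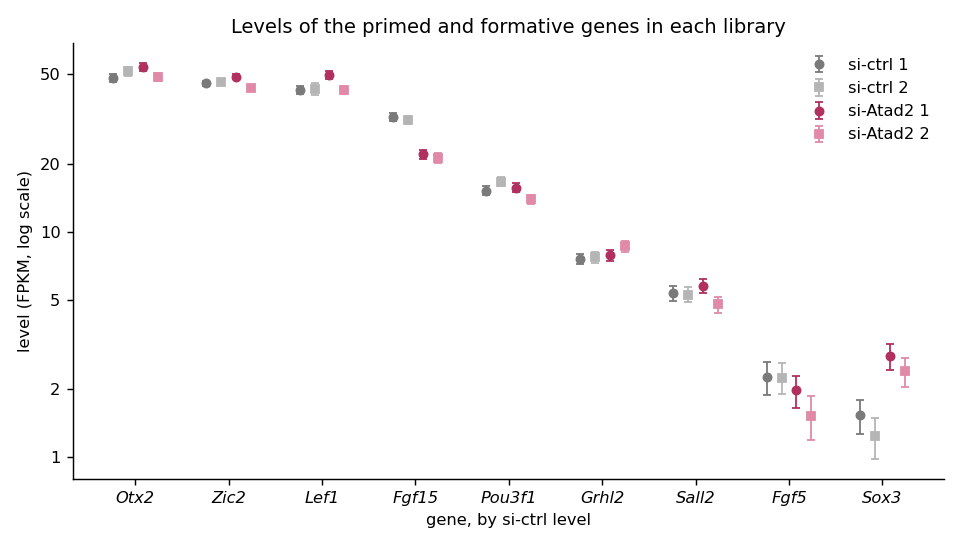
Level of each of the 9 genes in the 4 libraries, in FPKM on a log scale (vertical axis), with genes ordered by their si-ctrl level (horizontal axis). Points are single libraries and bars are the 95% intervals of the tables, combined over transcripts where a gene has several. Fgf15 lay between 31.5 and 32.4 FPKM in si-ctrl and between 21.3 and 22.1 FPKM in si-Atad2, and Sox3 lay between 1.23 and 1.53 FPKM in si-ctrl and between 2.40 and 2.80 FPKM in si-Atad2.

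After knockdown of Atad2, Sox3 rose, Fgf15 fell, and the other 7 genes did not pass the test. Of the 9 genes 3 (Sox3, Fgf15 and Fgf5) had an unadjusted p under 0.05, beside 1642 of all 10156. The 1 higher and 1 lower gene among 9 stand beside a background of 1.71% of all tested genes called higher and 0.492% called lower. The median log2 ratio of the 9 genes was -0.00074, beside -0.0083 for all tested genes. The si-Atad2 libraries did not overlap the si-ctrl libraries for Sox3 and Grhl2, which were higher, and for Fgf15 and Fgf5, which were lower. Such separation is frequent with 2 libraries against 2, where 22.2% of all tested genes were separated upwards and 26.8% downwards. With these numbers a two-sided exact permutation test of a single gene cannot go below p = 0.333.

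Of the ligands, Fgf15 showed the most regular difference. It encodes an endocrine fibroblast growth factor, known from the gut for restraining bile acid synthesis in the liver and expressed early in the embryonic nervous system. Its single listed transcript of 1807 bases lies on chromosome 7, from 144896531 to 144900953 on the plus strand of GRCm38. In pair 1 its level was 32.4 FPKM (95% interval 31.1 to 33.6) with the control siRNA and 22.1 FPKM (21.1 to 23.2) with the knockdown. In pair 2 it was 31.5 FPKM (30.2 to 32.8) and 21.3 FPKM (20.3 to 22.3). Both si-Atad2 libraries were below both si-ctrl libraries, and the libraries of a condition were within 1 FPKM of each other. After knockdown 68.4% of the control level remained in pair 1 and 67.7% in pair 2, a log2 ratio of -0.53 and -0.54 (mean -0.54, standard error 0.065, adjusted p = 0.0012 by limma). The width of the intervals corresponds to about 2702 and 2446 fragments in si-ctrl and 1830 and 1719 in si-Atad2. Transcripts of another gene, Gm26793, hold 21.6% of all stretches of 50 bases in the Fgf15 transcript, searched on both strands. Use of the strand in counting is not stated, and reads of Gm26793 could not be told apart in these stretches. Lef1 shares 33.9% of its stretches with Gm43352 in the same way, Pou3f1 7.42% with Gm2164 and Grhl2 1.53% with Gm16136.

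Fgf5, a secreted factor of the epiblast whose loss gives long hair in mice, was far less abundant than Fgf15. Its level was 2.27 FPKM with the control siRNA and 1.97 FPKM with the knockdown in pair 1, and 2.25 and 1.52 FPKM in pair 2. Both knockdown libraries were lower, but by different amounts, with log2 ratios of -0.14 and -0.37 (mean -0.25, standard error 0.092, adjusted p = 0.196 by limma). The unadjusted p of Fgf5 by limma was 0.019. The 95% intervals overlapped in pair 1 and not in pair 2.

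Among the transcription factors, Sox3 alone passed the test. It belongs with Sox1 and Sox2 to the SoxB1 group, single-exon genes of epiblast and neural progenitors with much the same DNA-binding HMG domain. Sox3 occupies positions 60891366 to 60893430 of the X chromosome (GRCm38, minus strand). In pair 1 its level was 1.53 FPKM (95% interval 1.26 to 1.80) with the control siRNA and 2.80 FPKM (2.43 to 3.17) with the knockdown. In pair 2 it was 1.23 FPKM (0.980 to 1.49) and 2.40 FPKM (2.05 to 2.74). Both si-Atad2 libraries were above both si-ctrl libraries, and the intervals of the conditions did not overlap. The FPKM ratio was 1.83 in pair 1 and 1.94 in pair 2. On the scale with 1 FPKM added, the log2 ratio was 0.59 and 0.60 (mean 0.59, standard error 0.086, adjusted p = 0.0032 by limma). About 133 and 95 fragments in si-ctrl and 228 and 191 in si-Atad2 lie behind these values. At a minimum mean level of 5 FPKM Sox3 was no longer tested, and its adjusted p by limma was 0.067 when short RNAs were also summed into the genes.

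Because Sox2 was far more abundant than Sox3, at 190 to 200 FPKM, the sequences of both genes were compared. The 240 coding bases of highest identity between them are printed here, with the bases that differ in capitals. The Sox3 window is chrX:60892769-60893008 (minus strand) and the Sox2 window is chr3:34650535-34650774 (plus strand), both in the only exon of the gene, read from the GENCODE transcripts of GRCm38.
Sox3: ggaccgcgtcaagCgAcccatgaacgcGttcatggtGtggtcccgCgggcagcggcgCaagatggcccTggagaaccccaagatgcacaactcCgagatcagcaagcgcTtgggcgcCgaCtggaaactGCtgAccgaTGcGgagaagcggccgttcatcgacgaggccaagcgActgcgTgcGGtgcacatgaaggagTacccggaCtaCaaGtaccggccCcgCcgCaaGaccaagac
Sox2: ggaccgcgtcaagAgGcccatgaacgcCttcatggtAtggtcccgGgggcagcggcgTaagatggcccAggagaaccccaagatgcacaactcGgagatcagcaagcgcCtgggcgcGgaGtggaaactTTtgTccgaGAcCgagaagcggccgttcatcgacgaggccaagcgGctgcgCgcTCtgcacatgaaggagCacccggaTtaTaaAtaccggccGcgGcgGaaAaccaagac
In this window 211 of 240 bases were identical (87.9%), with a longest identical run of 32 bases, which is shorter than the 50 cycles read from each end. The best window with Sox1 had 218 identical bases (90.8%) and a longest run of 45 bases. Over the whole Sox3 transcript, none of 2016 stretches of 50 bases occurred in a transcript of another gene. Only identical stretches were counted. Reads placed with mismatches were not examined, so an exchange of reads between these genes was not tested. Sox2 had a log2 ratio of 0.04 (adjusted p = 0.766 by limma), and Sox1 stayed under 1 FPKM in all libraries (0.761 to 0.992 FPKM).

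Sox3 also has an extreme base composition, with 66.4% G and C in its transcript, at percentile 99.8 of the tested genes. The log2 ratios of all 10156 genes had a Spearman correlation with GC content of -0.28 in pair 1 and 0.085 in pair 2, and the ratio of si-ctrl 2 over si-ctrl 1 had one of -0.55. These are correlations across genes of the same libraries, described without a test. The 68 tested genes with between 64 and 69% GC had a median log2 ratio of -0.0044 in pair 1 and 0.10 in pair 2, against 0.59 and 0.60 for Sox3. With the GC trend of each pair removed, the log2 ratio of Sox3 was 0.61 (adjusted p = 0.019 by limma) and that of Fgf15 was -0.52 (adjusted p = 0.013 by limma).

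Otx2, the homeobox factor that opens the way out of the naive state, had 48.2 and 53.9 FPKM in pair 1 and 51.7 and 48.7 FPKM in pair 2, si-ctrl first. It was higher after knockdown in pair 1 and lower in pair 2, with log2 ratios of 0.16 and -0.08 (mean 0.04, standard error 0.071). Pou3f1, the POU factor also called Oct6, which acts with Otx2, had 15.2 and 15.7 FPKM in pair 1 and 16.7 and 13.9 FPKM in pair 2. Its log2 ratios were 0.04 and -0.24 (mean -0.10, standard error 0.080). For both genes the libraries of the conditions overlapped.

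Lef1, which binds DNA with β-catenin at Wnt target genes, had 42.8 and 49.7 FPKM in pair 1 and 43.1 and 42.7 FPKM in pair 2, with log2 ratios of 0.21 and -0.01 (mean 0.10, standard error 0.070). Zic2, a zinc finger factor of the neural plate that is bound at many enhancers in ES cells, had 45.7 and 48.8 FPKM in pair 1 and 46.3 and 43.4 FPKM in pair 2. Its log2 ratios of 0.09 and -0.09 cancelled to a mean of -0.00074 (standard error 0.067). Sall2, a zinc finger factor of the spalt family, had 5.32 and 5.77 FPKM in pair 1 and 5.26 and 4.76 FPKM in pair 2, with log2 ratios of 0.10 and -0.12 (mean -0.01, standard error 0.084). In each of these 3 genes si-Atad2 1 was the highest library and si-Atad2 2 the lowest.

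Grhl2, a grainyhead-like factor that maintains epithelial genes as the cells become an epithelium, had 7.58 and 7.87 FPKM in pair 1 and 7.71 and 8.63 FPKM in pair 2. The si-Atad2 libraries were above the si-ctrl libraries, by a log2 ratio of 0.05 and 0.15 (mean 0.10, standard error 0.076). The adjusted p by limma of these 6 genes ranged from 0.526 for Lef1 to 0.996 for Zic2.

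**Figure D2:**
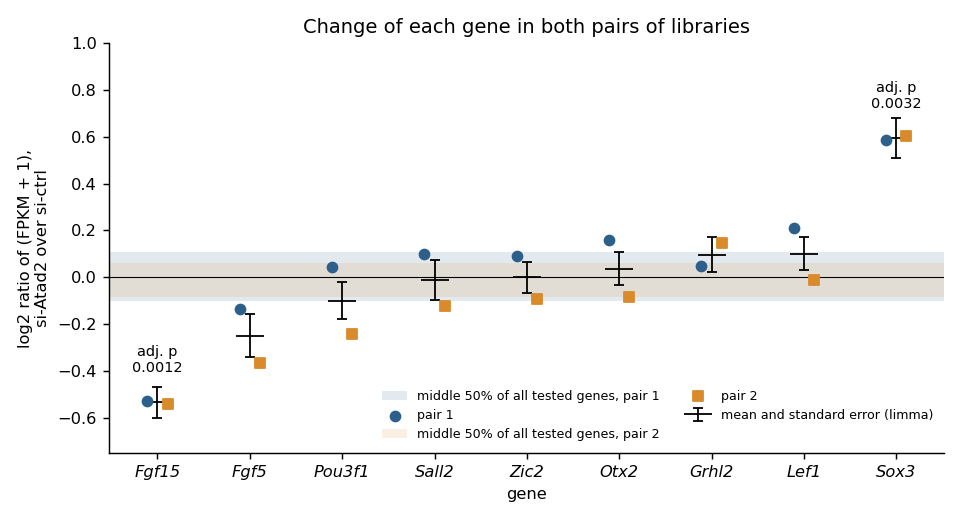
Log2 ratio of (FPKM + 1), si-Atad2 over si-ctrl, of each gene (horizontal axis, ordered by mean) in pair 1 (circles) and pair 2 (squares), with the mean and standard error from limma in black. Shaded bands hold the middle 50% of all tested genes in each pair, and the adjusted p is printed for the genes past 0.05. Fgf15 (mean -0.54) and Sox3 (mean 0.59) have both pairs on the same value, whereas the points of Otx2, Zic2, Sall2 and Pou3f1 lie on either side of 0.

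The pairs were not alike for most of the 9 genes. Otx2, Pou3f1, Lef1, Zic2 and Sall2, 5 of the 9, had a positive log2 ratio in pair 1 and a negative one in pair 2, a combination found in 21.9% of all tested genes. The median of the 9 genes was 0.09 in pair 1 and -0.09 in pair 2. The plot of pair 1 against pair 2 sets these genes to the right of and below the origin, with Sox3 and Fgf15 at opposite ends of the diagonal. Their difference between the pairs was not tested, since each pair has 1 library per condition. Whether the pairs received the same siRNA is not known, so a difference of siRNA and a difference between repeats cannot be told apart.

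**Figure D3:**
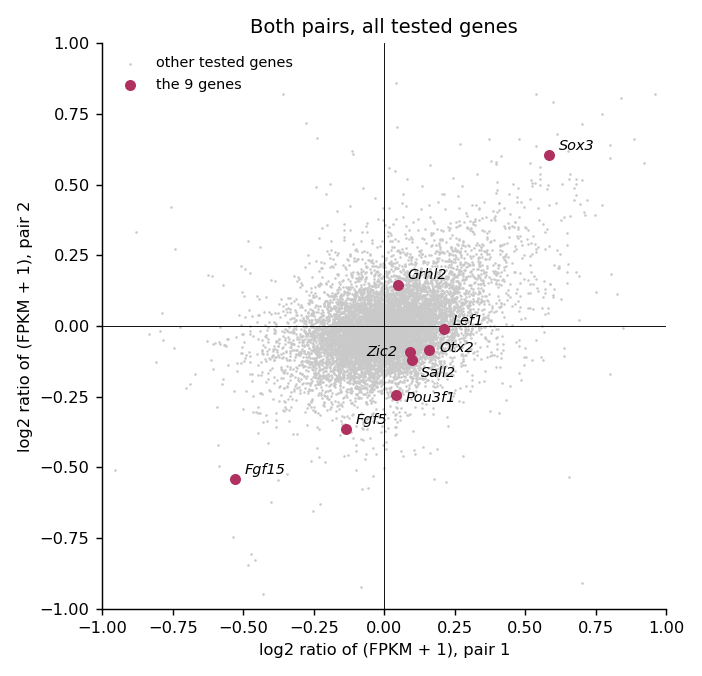
Log2 ratio of (FPKM + 1) in pair 1 (horizontal axis) and in pair 2 (vertical axis) for 10141 tested genes (grey) and the 9 genes (coloured, named), with 15 genes beyond the axes not drawn. Sox3 lies at 0.59 and 0.60, Fgf15 at -0.53 and -0.54, and 5 of the 9 genes lie right of 0 and below 0.

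For several of these genes the tables list more than 1 transcript, which allows the makeup of each gene to be read beside its level. The fragments of shared exons were divided between transcripts by the authors' model, so these shares are estimates, and the match of a listed transcript to an annotated one was made by its length within its locus. The sequences shown next are the parts in which the transcripts of a gene differ.

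Fgf5 was listed as a transcript of 2501 bases with all 3 exons and as a transcript of 2397 bases. The difference of 104 bases equals the length of exon 2 of 3, chr5:98261943-98262046 on the plus strand of GRCm38, which is coding and not a multiple of 3 in length. A short form of Fgf5 that skips the middle exon is known, and its truncated protein opposes the full one in the hair follicle.
Fgf5 exon 2: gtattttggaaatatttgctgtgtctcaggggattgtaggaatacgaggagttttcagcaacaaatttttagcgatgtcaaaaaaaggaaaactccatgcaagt
The longer transcript had 1.70 and 1.74 FPKM in pair 1 and 1.99 and 0.858 FPKM in pair 2, si-ctrl first. The shorter transcript had 0.567 and 0.236 FPKM in pair 1 and 0.259 and 0.665 FPKM in pair 2. The shorter one therefore took 25.0% and 11.9% of the Fgf5 level in pair 1 and 11.5% and 43.7% in pair 2. Against si-ctrl of the same pair, its share was lower in si-Atad2 1 and higher in si-Atad2 2, with no common direction. The lower Fgf5 level of si-Atad2 2 lay entirely in the longer transcript.

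Otx2 was listed with 3 transcripts that begin at different start sites on the minus strand of chromosome 14. The transcript of 1724 bases, whose match begins closest to the coding exons at position 48662872, took between 68.4 and 71.7% of the Otx2 level in all libraries. The transcript of 1688 bases, whose match begins at 48667513, took between 15.7 and 18.4%. It holds 24 coding bases in exon 4 of 5, chr14:48661451-48661474, that the 1724-base transcript lacks. They keep the reading frame and are printed 5′ to 3′ on the minus strand.
Otx2 alternative bases: ggccctgggcttcttgtcctgcag
The transcript of 1642 bases, whose match begins at 48665106, took between 11.7 and 14.6%. Each share varied by less than 4 percentage points over the 4 libraries. The conditions overlapped in the shares of the 1724-base and 1642-base transcripts, while the 1688-base transcript took 16.6 and 17.6% in pair 1 and 15.7 and 18.4% in pair 2, si-ctrl first.

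Lef1 was listed with 6 transcripts. The one of 2457 bases that holds every exon of the full annotated transcript is listed at 0 in all 4 libraries, while that of 2332 bases had 29.0 and 34.1 FPKM in pair 1 and 28.5 and 29.3 FPKM in pair 2. It took between 66.2 and 68.7% of the Lef1 level and lacks 2 exons, of 84 and 41 bases. The exon of 84 bases is exon 6 of 12, at chr3:131191023-131191106 on the plus strand, all of it coding and in frame, in the region between the β-catenin binding end and the HMG domain.
Lef1 exon 6: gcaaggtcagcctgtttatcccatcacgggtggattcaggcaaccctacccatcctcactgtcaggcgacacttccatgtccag
The transcript of 1273 bases had 12.8 and 14.6 FPKM in pair 1 and 13.9 and 12.7 FPKM in pair 2, between 29.3 and 32.3% of the level. Its match begins at an internal start site, position 131112797, 2326 bases inside the gene, and lacks the 207 coding bases of the usual first exon, which encode the end that binds β-catenin. Forms of Lef1 without this end are known to bind DNA without β-catenin. The other 3 transcripts together were minor, the highest of them at 0.564 FPKM. The share of the 1273-base transcript was 29.9 and 29.3% in pair 1 and 32.3 and 29.7% in pair 2, si-ctrl first, with the conditions separated by less than 1 percentage point.

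Sall2 was listed with 2 transcripts that differ in their first exon. The one of 4768 bases, whose match begins at position 52316323 on the minus strand of chromosome 14, took between 68.0 and 72.8% of the level. The one of 5055 bases, whose match begins 12439 bases further upstream at 52328762, took between 27.2 and 32.0%. Both first exons are coding, with 67 bases in the nearer and 73 in the farther one, and are spliced to a shared exon with 2939 coding bases. The share of the nearer start was 68.0 and 68.9% in pair 1 and 72.8 and 68.5% in pair 2, with the conditions overlapping. Grhl2 was listed with a transcript of 4946 bases, which took between 85.8 and 88.5% of the level, and a shorter one of 3623 bases.

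**Figure D4:**
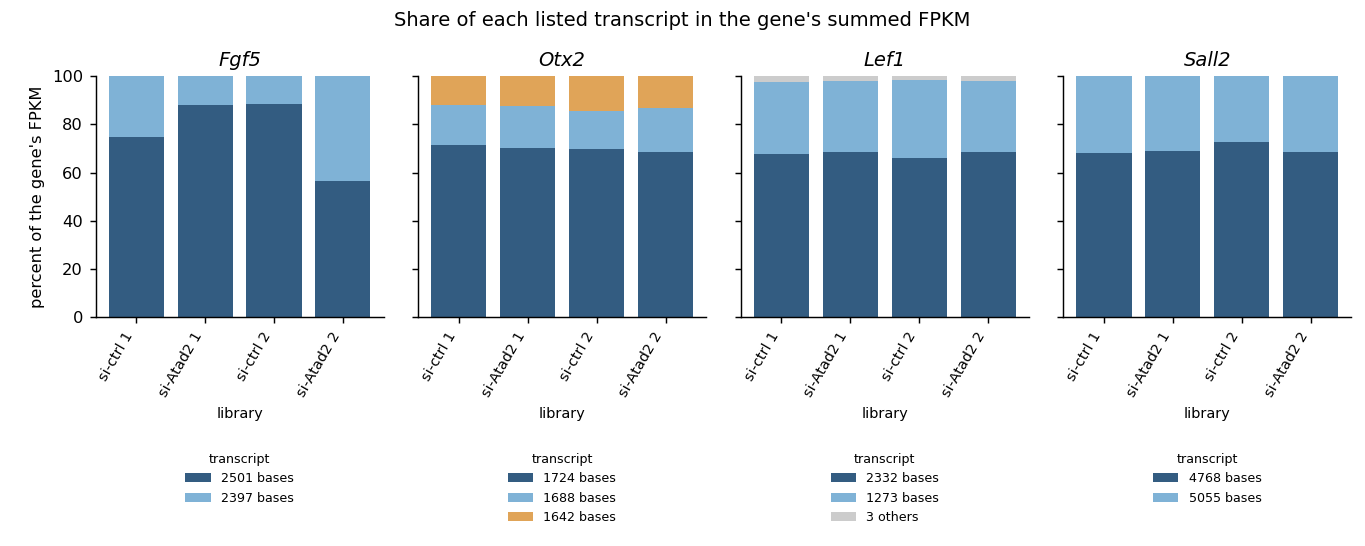
Percent of the summed FPKM of Fgf5, Otx2, Lef1 and Sall2 (vertical axis) taken by each listed transcript, named by its length in bases, in the 4 libraries (horizontal axis). Bars start at 0 and stack to 100%. The shorter Fgf5 transcript varied from 11.5 to 43.7%, while the highest transcript of Otx2 stayed between 68.4 and 71.7% and that of Sall2 between 68.0 and 72.8%.

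The promoters of the alternative start sites of Lef1 and Sall2 are shown because these starts carried a sizeable share of the level in every library. Each was read from the RefSeq promoter windows of GRCm38.p6, which held 4 of the 9 genes (Fgf5, Otx2, Lef1 and Sall2), up to the last base before the start, and is printed 5′ to 3′ on the strand of the gene. Capitals mark the GC box GGGCGG and the TATA box TATAAA, searched on both strands with no overlap between them. The Lef1 window is chr3:131112541-131112790 (plus strand, before the internal start at 131112791). The nearer Sall2 window is chr14:52316324-52316573 (minus strand). The farther one is chr14:52328763-52328920 (minus strand), limited to the 158 bases outside annotated exons.
Lef1 internal promoter: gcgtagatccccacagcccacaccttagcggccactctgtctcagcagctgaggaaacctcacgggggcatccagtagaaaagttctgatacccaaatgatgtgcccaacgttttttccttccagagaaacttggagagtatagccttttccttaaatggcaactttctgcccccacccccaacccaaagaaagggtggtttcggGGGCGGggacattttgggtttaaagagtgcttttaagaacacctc
Sall2 nearer promoter: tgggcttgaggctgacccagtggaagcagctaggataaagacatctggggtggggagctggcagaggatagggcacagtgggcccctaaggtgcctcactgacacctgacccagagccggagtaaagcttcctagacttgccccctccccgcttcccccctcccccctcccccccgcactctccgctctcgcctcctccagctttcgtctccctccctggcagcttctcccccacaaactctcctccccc
Sall2 farther promoter: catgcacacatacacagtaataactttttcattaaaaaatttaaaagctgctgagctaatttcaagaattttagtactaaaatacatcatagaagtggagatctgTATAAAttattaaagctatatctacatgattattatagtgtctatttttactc
The internal Lef1 promoter held 1 GC box, and the nearer Sall2 promoter held neither motif. The farther Sall2 promoter held 1 TATA box and no CG dinucleotide, with 25.3% G and C against 64.4% in the nearer one. Over all 32851 RefSeq windows of 250 bases, 32.7% held the GC box and 12.4% the TATA box.

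The paralogs of the 9 genes were followed to see whether a related gene moved where a member did. Of 22 paralogs, 20 had a value and 12 were tested, and none of the 12 passed the threshold (limma). Of these 12, 4 had an unadjusted p under 0.05 (Sall1, Sall3, Sall4 and Fgf4), beside 1642 of all 10156 genes. The median log2 ratio of the 12 was -0.089, beside -0.0083 for all genes. Sall3, the relative of Sall2, had 1.91 and 1.18 FPKM in pair 1 and 1.86 and 1.26 FPKM in pair 2, or -0.38 as the mean on the log2 scale (limma adjusted p = 0.051, standard error 0.089). Its relatives Sall1 (log2 ratio 0.17) and Sall4 (-0.16) were well expressed, at 30.7 to 37.2 and 49.1 to 61.5 FPKM.

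Fgf4, the ERK-activating ligand that ES cells secrete, was the most abundant of the FGFs listed, with 103 and 92.4 FPKM in pair 1 and 105 and 89.5 FPKM in pair 2. Its log2 ratio was -0.19 (standard error 0.060, adjusted p = 0.119 by limma). Fgf6, Fgf21 and Fgf23 were under 1 FPKM in every library, as were Otx1, Pou3f2, Zic1, Zic4 and Sox1. No transcript was named for Pou3f3 and Pou3f4.

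The log2 ratios of the other paralogs described here were small. Zic5, which lies beside Zic2, had a log2 ratio of -0.11. Among the relatives of Lef1, Tcf7 had -0.18 (-0.41 in pair 1 and 0.05 in pair 2), Tcf7l1 had 0.03 and Tcf7l2 had -0.13. The grainyhead-like genes Grhl1 and Grhl3 had -0.07 and 0.03.

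Of 18 other genes of the formative and primed states, 16 were tested, with a median log2 ratio of -0.033. The genes moved both ways, with a mean log2 ratio above 0 in 7 and below 0 in 9, beside 4765 and 5391 of all 10156 genes. Of the 16 genes 10 had an unadjusted p under 0.05, beside 1642 of all 10156. In 14 of the 16 both pairs had the same sign, beside 6346 of all 10156. Sox4, an HMG-box factor of progenitor cells, rose from 7.05 to 10.1 FPKM in pair 1 and from 6.87 to 8.58 FPKM in pair 2 (log2 ratio 0.37, adjusted p = 0.030 by limma). It was the highest ratio of the list. Fst, which encodes the activin antagonist follistatin, fell from 1.95 to 1.08 FPKM and from 1.88 to 1.35 FPKM (log2 ratio -0.40, adjusted p = 0.0498 by limma), the lowest of the list. Both calls were lost without the replicate block (adjusted p = 0.076 and 0.067 by limma) and with the GC trend removed (0.071 and 0.095). Foxd3, a forkhead factor of the epiblast, came closest to the threshold among the others, with log2 ratios of 0.45 and 0.22 (mean 0.34, adjusted p = 0.052). Sox11 and Lin28b had mean log2 ratios of 0.37 and 0.32 (adjusted p = 0.107 and 0.109) and Wnt8a had -0.30 (0.146), each larger in pair 1. The de novo methyltransferases Dnmt3a and Dnmt3b, which rise in the formative state, were among the 14 genes that did not pass, with log2 ratios of -0.13 and -0.03.

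FGF receptors and response genes were examined because 2 of the 9 genes are FGF ligands. Of 12 genes, 10 were tested, with 1 higher, none lower and a median log2 ratio of 0.080. Dusp6, the ERK phosphatase that is induced by FGF signalling, was at 13.9 and 22.9 FPKM in pair 1 and at 14.2 and 16.3 FPKM in pair 2. It was higher in both pairs but unequally, with log2 ratios of 0.68 and 0.19 (mean 0.44, adjusted p = 0.041 by limma). The call was lost without the block (0.149) and with the GC trend removed (0.124). Fgfr3 had the lowest ratio, -0.27 (adjusted p = 0.152). Of the 10 genes 4 had an unadjusted p under 0.05, beside 1642 of all 10156. Dusp6 and Spry4 of these were higher, and Etv4 and Fgfr3 were lower. Spry4 had log2 ratios of 0.52 and 0.15 (mean 0.33, adjusted p = 0.061 by limma), and Etv4 had -0.22 and -0.20 (mean -0.21, adjusted p = 0.115 by limma). Klb, the co-receptor that Fgf15 needs on its target cells, was under 1 FPKM, between 0.257 and 0.286 FPKM in all libraries.

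Of 9 partners of Lef1 and Wnt response genes, 7 were tested, with 1 higher, none lower and a median of 0.059. Ctnnb1, the gene of β-catenin, rose from 225 to 289 FPKM in pair 1 and from 235 to 282 FPKM in pair 2 (log2 ratio 0.31, standard error 0.057, adjusted p = 0.015 by limma). With transcripts of all lengths its adjusted p was 0.169. Axin2, a direct target of β-catenin, had a log2 ratio of 0.13 (adjusted p = 0.516), and Tle4, a corepressor of Lef1 and its relatives, had the lowest ratio, -0.16.

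The epithelial genes linked to Grhl2 held 9 tested genes and no call (limma, with Cldn6 and Krt18 at an unadjusted p under 0.05), with a median of 0.077. Cldn6 had the highest ratio, 0.25 in each pair (adjusted p = 0.073), and Krt8 the lowest, -0.15. No transcript was named for Tjp3. Cdh1 (E-cadherin) had a log2 ratio of -0.03 at 81.6 to 87.4 FPKM.

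All 13 naive state genes were tested, with 1 higher, 1 lower and a median of -0.047. Klf2, a factor of the naive network, rose from 53.1 to 77.7 FPKM in pair 1 and from 48.1 to 85.7 FPKM in pair 2 (log2 ratio 0.68, standard error 0.073, adjusted p = 0.00059 by limma), and with transcripts of all lengths its adjusted p was 0.056. Dppa3, a germline and naive marker also called Stella, fell from 8.31 to 6.95 FPKM and from 9.89 to 6.03 FPKM (log2 ratio -0.43, adjusted p = 0.037 by limma). Its call was lost without the block (0.076) and with the GC trend removed (0.077). Of the 13 genes 10 had a negative mean log2 ratio, beside 5391 of all 10156 genes. In 7 of the 13 both si-Atad2 libraries lay below both si-ctrl libraries, beside 26.8% of all genes. Among those that did not pass the test, Nanog had log2 ratios of -0.42 and -0.09 (mean -0.25, adjusted p = 0.102), Prdm14 -0.33 and -0.09 (mean -0.21, adjusted p = 0.206), and Klf4, Esrrb and Tfcp2l1 means of -0.07, -0.07 and -0.14. The plot of the lists shows between 0 and 2 calls in each, with the list medians within 0.1 of 0 on the log2 scale.

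**Figure D5:**
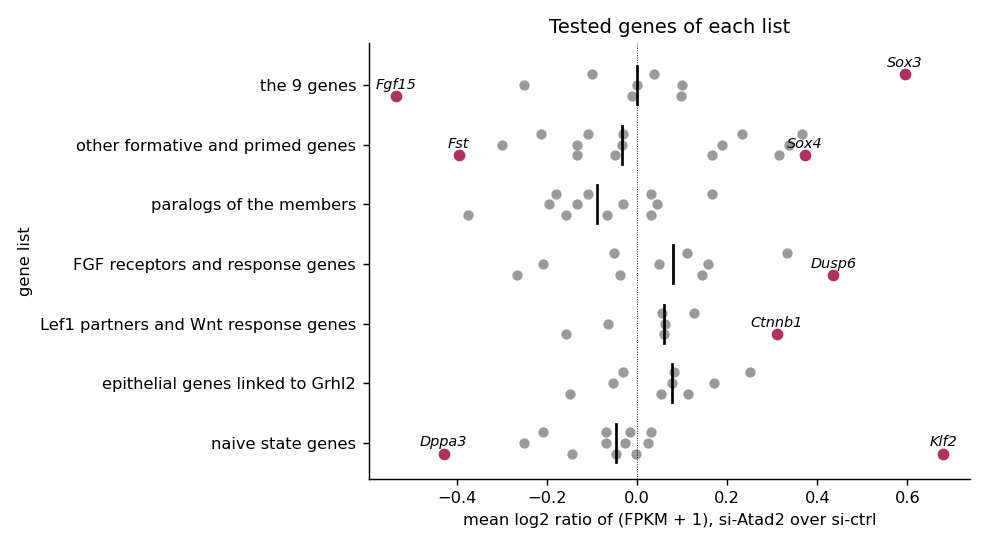
Mean log2 ratio of (FPKM + 1), si-Atad2 over si-ctrl (horizontal axis), of each tested gene in the 9 genes and 6 related lists (vertical axis). Each point is a gene, coloured and named where its adjusted p is under 0.05 (limma), and black bars are list medians. The medians lie between -0.089 and 0.080, with Sox3 and Klf2 as the highest points and Fgf15 as the lowest.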

How the data were processed

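Per the labels, RNA-seq libraries were made by the TruSeq RNA protocol and sequenced with paired ends of 50 cycles. The 4 libraries of tagged 46C ES cells were grouped by their labels. The submitters' processing notes name TopHat, Cuffdiff and mm9, and the supplement states that reads were mapped with Bowtie, with no version given. The loci in the tables match gene positions in GRCm38. The authors ran Cuffdiff once per pair and deposited 8 tables, with FPKM values and 95% intervals for 59120 transcripts, each entered as its own gene, which makes gene and transcript tables identical in FPKM. The authors' comparison tables, with their fold changes, p-values and q-values, were not used. The unit is FPKM and not counts, so no count model was run.

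Transcripts were named from GENCODE vM21 by length within 3 bases in their locus (14799) or as the only coding gene there (28843). The 15478 that stayed unnamed were left out of the sums. Transcripts under 200 bases or not flagged OK (720) were dropped, and FPKM were summed per gene (20466 genes), with intervals combined as if independent. Log2 ratios of (FPKM + 1) within pairs were tested with limma (eBayes with a trend on the level, Benjamini-Hochberg over 10156 genes with a mean of at least 1 FPKM, threshold 0.05). The pairing comes from the authors' Cuffdiff runs, and libraries that share a number did not deviate together (Pearson correlation -0.032 over tested genes). The fit was tested on simulated data. Fragment numbers were derived from interval widths taken as 2 standard deviations on each side. The members and the related lists were chosen with earlier results of these data known. Named genes are the 9 members, Atad2, every paralog (some items are not reported here), and from each list the genes past the threshold and its highest and lowest ratio, and a few others named in the text were chosen after their values were seen, as was the match of transcripts to annotated ones. A planned set of 14 alternatives changed the pseudocount, filter, block, trend, scaling, transcript length, naming, summing, GC trend or replicate. Fits ran in limma 3.58.1 under R 4.3.3, and tables, sequences and figures were made in Python 3.11.15 with pandas 2.3.3, numpy 2.4.6, matplotlib 3.10.9 and scipy 1.17.1.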

Additional observations from a re-analysis of the deposited data

How the results depend on the processing

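Sox3 kept its direction under every alternative that gave a value and stayed past the threshold in 9 of 11 with a test, and Fgf15 in 11 of 12. With no filter on the level, limma called 0 of 17748 genes in either direction (1750 with an unadjusted p under 0.05), so 0 of the 9 genes were higher and 0 lower, with log2 ratios of 0.59 for Sox3 (adjusted p = 0.409) and -0.54 for Fgf15 (0.378). With transcripts of all lengths, Sox3 at 0.59 had an adjusted p of 0.067 and 0 of the 9 genes were called higher, as also at a minimum of 5 FPKM, where Sox3 was not tested. Leaving out either replicate gave log2 ratios of 0.59 to 0.60 for Sox3, -0.54 to -0.53 for Fgf15 and -0.37 to -0.14 for Fgf5, as values with no test. Zic2, at -0.00074, turned to 0.034 with TPM, 0.0056 with median of ratios and 0.022 with the GC trend removed, and Sall2 to 0.019 with TPM and 0.0015 with the GC trend removed, all far from the threshold. The cause of these changes was not tested.

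Without the replicate block 123 genes were higher and 24 lower, against 174 and 50 with it, and the calls of Sox3 (adjusted p = 0.021) and Fgf15 (0.0050) held. Other counts of higher genes that moved were 262 (TPM), 24 (transcripts of all lengths), 19 (transcripts named by length only, fewer genes tested), 84 (highest transcript of each gene) and 109 (GC trend removed). Counts of lower genes were 81 (pseudocount of 5 FPKM), 29 (eBayes without a trend), 26 (median of ratios), 6 (all lengths), 13 (named by length only), 19 (highest transcript) and 21 (GC trend removed). The medians of the related lists stayed within 0.18 of 0 on the log2 scale except that of the Wnt list with transcripts named by length only (0.41). The median of all genes, 0.0011 in pair 1 and -0.016 in pair 2, was 0.035 and 0.024 with TPM and -0.0012 and -0.0022 with median of ratios. The tables hold no counts, and the weakest members, Sox3 and Fgf5, rest on the fewest fragments.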

Other observations

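The genes beside the members were looked up in the annotation, and some of them are described here. Fgf15 lies 31288 bases from Fgf4 on chromosome 7, and 28978 bases from Ccnd1 on its other side. Ccnd1 was under 1 FPKM in all libraries and was not tested. Only transcripts that could be named were summed, so the level of Ccnd1 may be understated. The summed level of Ccnd1 after knockdown was lower in pair 1 and higher in pair 2. Whether the position of Fgf15 has a part in its change was not tested. Fgf4 had 103 and 92.4 FPKM in pair 1 and 105 and 89.5 FPKM in pair 2, si-ctrl first, which is lower in both pairs (log2 ratio -0.19), though it did not pass the test (adjusted p = 0.119 by limma). Zic2 and Zic5 lie 9758 bases apart, and at log2 ratios of -0.00074 and -0.11 neither passed the test. These values are given as a description.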
